A study of Homo sapiens with 8 samples.

Results

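The genes described here build and anchor the actin cytoskeleton: the cytoplasmic actins, the proteins that load, cut, cap and branch actin filaments, tropomyosins, myosin II chains, filament crosslinkers, adhesion and membrane linkers, and the plakin, vimentin and lamin proteins next to them. They are 49 genes given as a list of symbols, each found by mapping its Ensembl identifier to its symbol. All 49 of the 49 were among the 63140 genes of the count table, and all 49 were among the 24057 genes with enough counts to be tested. The counts come from 8 ChIRP libraries (chromatin isolation by RNA purification), in which fixed and sonicated lysate is captured with biotinylated probes. The labels name neither the RNA that the probes target nor an input library, so every value below is an amount of RNA in a pull-down and not an enrichment. MOLM13 and OCI-AML4, the 2 labelled lines, are established human acute myeloid leukaemia lines, and all libraries were taken on day 3 after editing. Cells of both knockout (KO) groups received Cas9 ribonucleoprotein, which cuts DNA, with guides to the long non-coding RNA HOTSCRAMBL (HOTSCRAMBL KO) or to the AAVS1 control site (AAVS1 KO). Cells of both base-editing groups received a cytosine base editor (CBE) with guides to HOTSCRAMBL (HOTSCRAMBL CBE) or to AAVS1 (AAVS1 CBE). Every group, controls included, was nucleofected with an editor and guides, and each held 1 library labelled MOLM13 and 1 labelled OCI-AML4. Nothing in the labels says whether a group was a clone or a bulk population, and no unedited cells are among these libraries.

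Actin monomers assemble into polar filaments that grow at one end and are taken apart at the other, and thymosins and profilin set how much monomer is free to join. Cofilin and gelsolin sever filaments, capping protein closes their ends, the Arp2/3 complex starts branches, and formins and Ena/VASP proteins lengthen unbranched filaments. In leukocytes this machinery forms a thin cortex under the membrane, tied to it by ezrin, radixin, moesin and spectrin and contracted by myosin II, which serves migration, phagocytosis and cell shape.

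Coding sequence is shown first for pairs of members that the counting had to tell apart. ACTB (chromosome 7, minus strand) and ACTG1 (chromosome 17, minus strand) encode nearly the same protein, and their first 120 coding bases, at chr7:5529538-5529657 and chr17:81512235-81512354 of GRCh38 in GENCODE v29, are given with the differing bases in capitals.
ACTB: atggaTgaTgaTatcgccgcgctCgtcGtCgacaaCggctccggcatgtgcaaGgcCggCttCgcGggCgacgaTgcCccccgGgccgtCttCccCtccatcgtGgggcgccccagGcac
ACTG1: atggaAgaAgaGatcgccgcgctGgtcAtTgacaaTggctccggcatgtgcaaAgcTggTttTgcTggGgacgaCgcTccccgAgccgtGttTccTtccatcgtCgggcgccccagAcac
These 2 stretches differ at 21 of 120 bases, and over all 1125 coding bases the genes were 91.29% identical.

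TMSB10 and TMSB4X encode the thymosin beta proteins that hold actin monomers in reserve. Their complete coding sequences of 132 bases, with differing bases in capitals, come from chr2:84906018-84906420 and chrX:12976262-12976808 (GRCh38, plus strand, each over 2 exons).
TMSB10: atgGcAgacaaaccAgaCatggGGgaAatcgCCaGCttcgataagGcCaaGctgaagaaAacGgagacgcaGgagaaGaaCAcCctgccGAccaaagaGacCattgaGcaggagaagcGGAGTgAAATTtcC
TMSB4X: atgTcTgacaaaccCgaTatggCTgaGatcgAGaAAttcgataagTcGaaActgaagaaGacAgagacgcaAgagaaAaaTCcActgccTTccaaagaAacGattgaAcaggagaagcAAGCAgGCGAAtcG
The thymosin sequences differ at 37 of 132 bases, an identity of 71.97%.

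Library totals ran from 20548300 to 37970163 counts, and the members together took between 1.498% and 1.72% of them. Myeloid markers summed to 1126 to 1575 CPM (counts relative to a fixed library total), with CD33, SPI1, FLT3 and CEBPA all at or above 125.7 CPM and CD34, KIT, ANPEP and CD14 between 0 and 2.41 CPM. Within the myeloid list single genes moved apart. CD33 stood at 192 to 204 CPM in the 4 AAVS1 libraries, 160 and 126 for HOTSCRAMBL KO, and 142 and 144 for HOTSCRAMBL CBE. In the same order ITGAM stood at 32.5 to 61.0, 16.6 and 40.1, and 16.9 and 24.9 CPM. FLT3 stood at 230 to 255.5, 179 and 161, and 263 and 254 CPM. PTPRC stood at 65.8 to 101.5, 81.7 and 82.9, and 125.5 and 107 CPM. SPI1 stood at 261 to 297, 258 and 236, and 235 and 267 CPM. LYZ, the lysozyme gene of the granulocyte and monocyte lineage, stood at 122 to 151 CPM in the 4 AAVS1 libraries, 483 and 652 in those of HOTSCRAMBL KO, and 140 and 147 for HOTSCRAMBL CBE. CEBPA stood at 136 to 145 CPM in AAVS1 libraries, 262 and 244 for HOTSCRAMBL KO, and 177 and 208 for HOTSCRAMBL CBE, and MPO lay at 42.9 to 56.2 CPM in AAVS1 libraries and 25.3 to 29.8 in the 4 HOTSCRAMBL libraries. The X-linked non-coding RNA XACT stood at 475 to 505 CPM in AAVS1 libraries, 1429 and 1354 for HOTSCRAMBL KO, and 350 and 322 for HOTSCRAMBL CBE. Summed markers of T, B, erythroid, epithelial and stromal or muscle cells each came to 11.7 CPM at most in any library, and CD3E, HBB, KRT19 and the muscle filament gene DES were at 0 in all 8. Ribosomal protein mRNAs took 1.32% to 1.59% of counts in the 4 AAVS1 libraries, 3.98% and 4.46% in HOTSCRAMBL KO, and 3.20% and 3.38% in HOTSCRAMBL CBE. Mitochondrial RNA took 6.77% to 7.23% in the AAVS1 libraries and 10.2% to 11.9% in the HOTSCRAMBL libraries. The ribosomal protein and mitochondrial shares, CEBPA, MPO, CD33 and ITGAM moved the same way with both editors. The mitochondrial share does not describe each of its RNAs. MT-ND5 stood at 8990 to 9285 CPM in AAVS1 libraries, 26760 and 25510 for HOTSCRAMBL KO, and 5713 and 5907 for HOTSCRAMBL CBE. In the same order MT-CO1 stood at 6052 to 7047, 8605 and 9761, and 8932 and 9803 CPM. LYZ was higher with KO only, SPI1 and FLT3 were lower with KO only, and PTPRC was lower with KO and higher with CBE. XACT was higher with KO and lower with CBE. The part of these shares and levels in the results below was not tested.

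Each level below is in CPM scaled by TMM, a method that multiplies each library total by a factor so that most genes do not change, and, between genes, as CPM per kilobase of exon. Averaged over the 8 libraries, ACTB had the highest level at 508 CPM per kb, followed by ACTG1 at 247. TMSB10 and TMSB4X stood next at 172 and 169 CPM per kb, and PFN1 and FLNA at 157 and 155. Neighbours in each of these last 2 pairs differed by less than their spread between libraries. PLEC, ZYX and TPM2 lay between 91.98 and 100.0 CPM per kb. At the other end stood MYL9 (1.01), MYH10 (0.477) and TPM1 (0.249 CPM per kb), and the smallest count of any member in any library was 18, for MYL9. Per gene, 31 of the 49 members had a mean level above 100 CPM.

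With Cas9 targeting of HOTSCRAMBL, 16 of the 49 members changed against AAVS1 KO, 8 upward and 8 downward, by the edgeR quasi-likelihood test with Benjamini-Hochberg adjustment over all genes at a threshold of 0.05. Among all 24057 tested genes 8.76% were called, 4.51% higher and 4.25% lower. Calls are more frequent at high levels, so the fairer background is the 3191 tested genes at or above 64.4 CPM, the lower quartile of the members. There 34.6% of genes were called, 14.2% higher and 20.4% lower, beside 15 of the 37 members at that level (40.5%). The members that rose were ACTB, ACTG1, TMSB10, TMSB4X, CFL1, LCP1, ACTR2 and ARPC5, and those that fell were AHNAK, TPM2, EZR, TPM4, LMNB1, CCDC88B, SPTBN1 and DOCK2. The median log2 fold change was 0.11 over the members and −0.01 over all tested genes. At or above 64.4 CPM it was 0.02 over the 37 members and −0.13 over the 3191 tested genes. Without TMM the first 2 medians lay lower, at −0.05 for the members and −0.17 for all tested genes, so directions are relative to that scaling. In a bulk pull-down, fewer cells of a kind, less RNA per cell and a smaller captured share cannot be told apart.

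With base editing of HOTSCRAMBL, 22 of the 49 members changed against AAVS1 CBE, 17 upward and 5 downward by edgeR. The background was 8.83% of all tested genes, 4.56% higher and 4.27% lower. At or above 64.4 CPM it was 36.5%, with 18.6% higher and 17.9% lower, beside 19 of 37 members (51.4%), 37.8% of them higher and 13.5% lower. The 17 that rose were ACTB, ACTG1, PFN1, TMSB4X, TMSB10, CFL1, LCP1, VIM, MSN, RDX, EZR, ARPC3, ACTR2, IQGAP1, MYH9, TLN1 and MYL12A. PLEC, CCDC88B, TPM2, AHNAK and FLNA fell. The members' median log2 fold change was 0.27 beside −0.02 over all tested genes. At or above 64.4 CPM it was likewise 0.27 over the 37 members and −0.02 over the tested genes.

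The comparisons have separate controls and share no library, but both were tested in the same model of all 8 libraries. The line term and the estimate of spread were shared, so calls in one are not independent of calls in the other. Both called 11 members, and 10 of them moved the same way: ACTB, ACTG1, TMSB10, TMSB4X, CFL1, LCP1 and ACTR2 rose in both, AHNAK, CCDC88B and TPM2 fell in both, and EZR fell with KO and rose with CBE. Over all tested genes 3.38% were called in both, and 3.07% in both with the same direction. In 22 members neither comparison made a call. Libraries of the groups did not overlap, with HOTSCRAMBL KO higher, in 17 members (background 21.0%) and, with HOTSCRAMBL KO lower, in 13 (background 23.8%). With base editing they did not overlap in 29 members on the higher side (background 22.7%) and in 8 on the lower side (background 23.7%). In either direction the background was 44.8% with KO and 46.4% with CBE, while 19 and 12 of the 49 members overlapped. These backgrounds, and those of the shared calls, are over all tested genes. None was taken at the level of the members, where calls are more frequent. All 16 members called with KO and all 22 called with CBE moved the same way in the pair labelled MOLM13 and in the pair labelled OCI-AML4. The calls were made on these same pairs, so their agreement was nearly fixed in advance. Of all 49 members, called or not, 40 with KO and 41 with CBE had the same sign in both pairs. The line labels were not checked against the cells, and 0.495% of all tested genes were called between them, so this describes 2 labelled pairs and does not show that the result recurs in 2 lines.

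**Figure D1:**
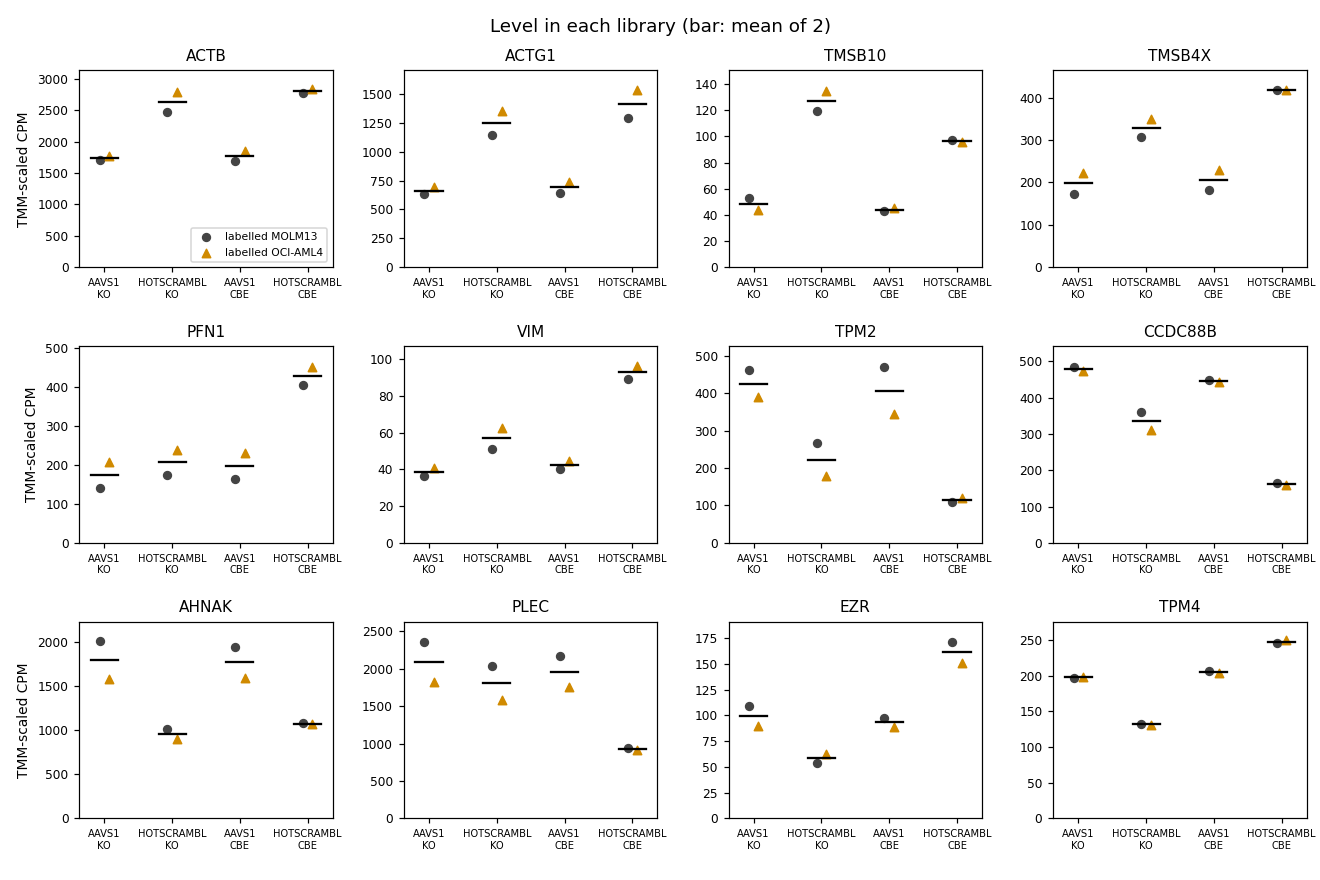
Level of 12 members in each library, in CPM after TMM scaling, from 0. Circles are libraries labelled MOLM13, triangles those labelled OCI-AML4, and bars the mean of 2; both HOTSCRAMBL groups lie above their controls for ACTB, ACTG1, TMSB10 and TMSB4X and below them for TPM2, CCDC88B and AHNAK, and EZR and TPM4 lie below with KO and above with CBE.

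In the sentences that follow, a pair of values gives the library labelled MOLM13 first and the one labelled OCI-AML4 second. Log2 fold changes carry a standard error (SE), derived from the test: the size of the log2 fold change divided by the square root of the edgeR F value. ACTB (ENSG00000075624, chromosome 7, 5526409 to 5563902), beta-actin, stood at 1701 and 1773 CPM in AAVS1 KO libraries and 2478 and 2788 in those of HOTSCRAMBL KO. In the base-edited groups it stood at 1695 and 1858 CPM in AAVS1 CBE libraries and 2773 and 2846 in those of HOTSCRAMBL CBE. All 4 HOTSCRAMBL libraries were above all 4 control libraries. The log2 fold change was 0.60 (edgeR adjusted p 1.54e-06, SE 0.07) with KO and 0.66 (edgeR adjusted p 3.22e-07, SE 0.07) with CBE.

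ACTG1 (ENSG00000184009, chromosome 17, 81509413 to 81523847), gamma-actin, stood at 636 and 690 CPM in AAVS1 KO libraries and 1143 and 1350 in those of HOTSCRAMBL KO. It stood at 640 and 741 CPM in AAVS1 CBE libraries and 1290 and 1531 in those of HOTSCRAMBL CBE. As for ACTB, no control library reached the lowest HOTSCRAMBL library. Its log2 fold change was 0.91 (edgeR adjusted p 1.28e-08, SE 0.08) with KO and 1.03 (edgeR adjusted p 1.60e-09, SE 0.08) with CBE. For neither actin did the KO and CBE effects differ by the test of the difference, which gave −0.06 (edgeR adjusted p 0.857, SE 0.10) for ACTB and −0.12 (edgeR adjusted p 0.711, SE 0.12) for ACTG1. Both calls of both actins held under each of the 19 alternative settings, including every left-out library.

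Of the 9 factors that bind monomers or turn filaments over, 3 rose with KO and 4 with CBE, and none fell by the edgeR test. At or above 64.4 CPM, 14.2% of tested genes rose and 20.4% fell with KO, and 18.6% rose and 17.9% fell with CBE. Each role, here and below, holds too few genes to set its count apart from these shares. TMSB10 (ENSG00000034510, chromosome 2, 84905656 to 84906671) stood at 53.2 and 44.2 CPM in AAVS1 KO libraries and 119 and 135 in those of HOTSCRAMBL KO. It stood at 43.2 and 45.0 CPM in AAVS1 CBE libraries and 97.1 and 95.7 in those of HOTSCRAMBL CBE. HOTSCRAMBL libraries lay above the controls throughout, with a log2 fold change of 1.39 (edgeR adjusted p 4.16e-06, SE 0.18) with KO, the largest called rise of a member there, and 1.13 (edgeR adjusted p 6.31e-05, SE 0.18) with CBE. TMSB4X (ENSG00000205542, chromosome X, 12975110 to 12977227) stood at 173 and 222 CPM in AAVS1 KO libraries, 307 and 349 in those of HOTSCRAMBL KO, 183 and 229 for AAVS1 CBE, and 418 and 418 for HOTSCRAMBL CBE. It rose by a log2 fold change of 0.73 (edgeR adjusted p 1.08e-04, SE 0.12) with KO and 1.03 (edgeR adjusted p 3.58e-07, SE 0.11) with CBE. All 4 thymosin calls held under the 19 alternatives.

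PFN1 (ENSG00000108518, chromosome 17, 4945652 to 4949061) encodes profilin, which hands monomers to growing filament ends. It stood at 141 and 207 CPM in AAVS1 KO libraries, 175 and 239 in those of HOTSCRAMBL KO, 163 and 231 for AAVS1 CBE, and 404 and 451 for HOTSCRAMBL CBE. The KO groups overlapped, and only the base-edited groups were apart: the log2 fold change was 0.25 (edgeR adjusted p 0.28, SE 0.13) with KO and 1.14 (edgeR adjusted p 1.11e-07, SE 0.12) with CBE. CFL1 (ENSG00000172757, chromosome 11, 65823022 to 65862026), the severing factor cofilin, stood at 93.6 and 124 CPM in AAVS1 KO libraries, 141 and 162 in those of HOTSCRAMBL KO, 91.3 and 132 for AAVS1 CBE, and 162 and 187 for HOTSCRAMBL CBE. Its log2 fold change was 0.48 (edgeR adjusted p 0.0398, SE 0.15) with KO and 0.66 (edgeR adjusted p 0.00172, SE 0.14) with CBE. The KO call of CFL1 was lost in all 8 fits that left out 1 library, with edgeR adjusted p up to 0.338, and the CBE call in 2 of 8, without AAVS1 CBE replicate 1 (p 0.133) or HOTSCRAMBL CBE replicate 1. VASP and EVL, which lengthen filaments, the coat protein gene CORO1A, the capping subunit CAPZB and the severing factor GSN were called in neither comparison. GSN had log2 fold changes of −0.59 with KO and 0.28 with CBE, and the other 4 lay between −0.15 and 0.27.

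The Arp2/3 complex and proteins that act on it or on its activators gave 4 calls of 9 with KO and 3 of 9 with CBE. Among tested genes at or above 64.4 CPM, 34.6% were called with KO and 36.5% with CBE. ACTR2 (ENSG00000138071, chromosome 2, 65227788 to 65271253), an actin-related subunit of the complex, stood at 62.0 and 70.7 CPM in AAVS1 KO libraries, 81.4 and 118 in those of HOTSCRAMBL KO, 66.2 and 75.7 for AAVS1 CBE, and 126 and 127 for HOTSCRAMBL CBE. It rose by a log2 fold change of 0.59 (edgeR adjusted p 0.0389, SE 0.18) with KO and 0.84 (edgeR adjusted p 7.13e-04, SE 0.16) with CBE. Its KO call was lost in 7 of 8 fits that left out 1 library, most without HOTSCRAMBL KO replicate 2 (log2 fold change 0.36, p 0.424), and its CBE call without HOTSCRAMBL CBE replicate 1 (p 0.12). ARPC5 (ENSG00000162704, chromosome 1, 183620846 to 183635783), another subunit, stood at 20.2 and 22.6 CPM in AAVS1 KO libraries, 36.1 and 44.3 in those of HOTSCRAMBL KO, 27.8 and 24.4 for AAVS1 CBE, and 33.9 and 33.9 for HOTSCRAMBL CBE. HOTSCRAMBL libraries were the higher ones, and the KO rise of 0.92 (edgeR adjusted p 0.0384, SE 0.28) was lost in all 8 such fits, with p up to 0.297. ARPC3 rose with CBE by 1.22 and had 0.41 with KO, which was not called. ACTR3, ARPC1B, ARPC2 and WAS, the activator mutated in Wiskott-Aldrich syndrome, were not called, with log2 fold changes from −0.04 to 0.61.

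CCDC88B (ENSG00000168071, chromosome 11, 64340204 to 64357534), a hook-related protein of leukocytes, had the largest fall among the Arp2/3 group with CBE. It stood at 486 and 474 CPM in AAVS1 KO libraries, 360 and 311 in those of HOTSCRAMBL KO, 449 and 444 for AAVS1 CBE, and 164 and 158 for HOTSCRAMBL CBE. Control libraries lay close together, KO libraries below them and CBE libraries lowest. The log2 fold change was −0.52 (edgeR adjusted p 0.00137, SE 0.11) with KO and −1.47 (edgeR adjusted p 2.75e-10, SE 0.11) with CBE. When each library's trend on GC content was removed, the KO value shrank to −0.12 (edgeR adjusted p 0.64), and the CBE value was −0.93 (edgeR adjusted p 1.87e-05). The KO call was also lost without AAVS1 KO replicate 2 (p 0.0767), AAVS1 KO replicate 1 or HOTSCRAMBL KO replicate 2. DOCK2 (ENSG00000134516, chromosome 5, 169637268 to 170083382), the exchange factor that activates Rac in leukocytes, stood at 544 and 420 CPM in AAVS1 KO libraries, 409 and 343 in those of HOTSCRAMBL KO, 527 and 461 for AAVS1 CBE, and 415 and 403 for HOTSCRAMBL CBE. Only its KO fall of −0.36 (edgeR adjusted p 0.0318, SE 0.10) was called, and 6 of 8 left-out fits lost it, most without AAVS1 KO replicate 1 (−0.24, p 0.505). The CBE value was −0.27 (edgeR adjusted p 0.11, SE 0.10).

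Tropomyosins, coiled-coil proteins that lie along filaments and set which motors and severing factors bind, did not move together. TPM2 (ENSG00000198467, chromosome 9, 35681992 to 35690056) stood at 463 and 390 CPM in AAVS1 KO libraries and 267 and 178 in those of HOTSCRAMBL KO. It stood at 470 and 345 CPM in AAVS1 CBE libraries and 110 and 119 in those of HOTSCRAMBL CBE. Every HOTSCRAMBL library lay below every control library. The log2 fold change was −0.95 (edgeR adjusted p 8.15e-06, SE 0.13) with KO and −1.83 (edgeR adjusted p 2.75e-10, SE 0.13) with CBE, the largest change of a member in either direction, and both held under all 19 alternatives. TPM4 (ENSG00000167460, chromosome 19, 16067021 to 16103002) stood at 197 and 199 CPM in AAVS1 KO libraries, 133 and 132 in those of HOTSCRAMBL KO, 208 and 204 for AAVS1 CBE, and 246 and 250 for HOTSCRAMBL CBE. It fell with KO (−0.58 with SE 0.13, edgeR adjusted p 0.00335), and with CBE its value was 0.27 (edgeR adjusted p 0.177, SE 0.12). The KO call was lost in 3 of 8 left-out fits, most without AAVS1 KO replicate 2 (−0.56, p 0.0806). TPM3 had 0.32 and 0.35 and TPM1, the lowest member per kb, −0.91 and 0.62, with KO and CBE, none of them called.

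Myosin II chains gave no call with KO and 2 of 6 with CBE. The background was 8.76% and 8.83% of all tested genes, and 34.6% and 36.5% of those at or above 64.4 CPM. MYH9, the heavy chain of the main non-muscle myosin of blood cells, had a log2 fold change of 0.12 with KO and rose by 0.35 with CBE. MYL12A, a regulatory light chain present at 6.12 to 22.6 CPM, rose by 1.22 with CBE. The light chains MYL12B and MYL6 had 1.18 and 0.53 with CBE without passing the threshold (edgeR adjusted p 0.0573 and 0.0667). MYH10 and MYL9, the lowest of the set per kb, had 0.80 and −0.73 with KO, neither called. With 1 library left out, the CBE call of MYH9 was lost in 3 of 8 fits, most without AAVS1 CBE replicate 1 (0.35, p 0.0984), and that of MYL12A in 6 of 8, most without the same library (0.94, p 0.342).

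Among 6 crosslinkers and scaffolds, LCP1 rose with both editors. LCP1 (ENSG00000136167, chromosome 13, 46125920 to 46211871), the leukocyte filament bundler L-plastin, stood at 169 and 193 CPM in AAVS1 KO libraries, 237 and 289 in those of HOTSCRAMBL KO, 200 and 178 for AAVS1 CBE, and 353 and 376 for HOTSCRAMBL CBE. HOTSCRAMBL libraries were above the controls in each comparison, with 0.54 (edgeR adjusted p 0.0058, SE 0.13) with KO and 0.94 (edgeR adjusted p 3.32e-06, SE 0.12) with CBE. The KO call was lost without AAVS1 KO replicate 1 (0.48, p 0.192) and in 2 other left-out fits. FLNA (ENSG00000196924, chromosome X, 154348524 to 154374634), filamin A, which links filaments into networks, stood at 1957 and 1809 CPM in AAVS1 KO libraries, 1719 and 1730 in those of HOTSCRAMBL KO, 2032 and 1730 for AAVS1 CBE, and 1235 and 1243 for HOTSCRAMBL CBE. It fell with CBE by 0.60 on the log2 scale (edgeR adjusted p 7.60e-06, SE 0.08), and its KO value was −0.13 (edgeR adjusted p 0.419, SE 0.08). Removing the GC trend brought the CBE value of FLNA to −0.24 (edgeR adjusted p 0.159). The scaffold IQGAP1 had 0.00 with KO and rose by 0.64 with CBE, a call lost without HOTSCRAMBL CBE replicate 2 (0.43, p 0.166) and in 2 other left-out fits. ACTN1, ACTN4 and LSP1 were not called, and LSP1, at 5.87 to 20.3 CPM, had −0.78 with KO and −1.04 with CBE.

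The adhesion linkers TLN1, VCL and ZYX, which connect integrins to filaments, gave no call with KO. Talin (TLN1) rose by 0.39 with CBE and had 0.26 with KO, and its call was lost in 6 of 8 left-out fits, most without AAVS1 CBE replicate 2 (0.31, p 0.298). VCL and ZYX had log2 fold changes between −0.11 and 0.18 in both comparisons.

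**Figure D2:**
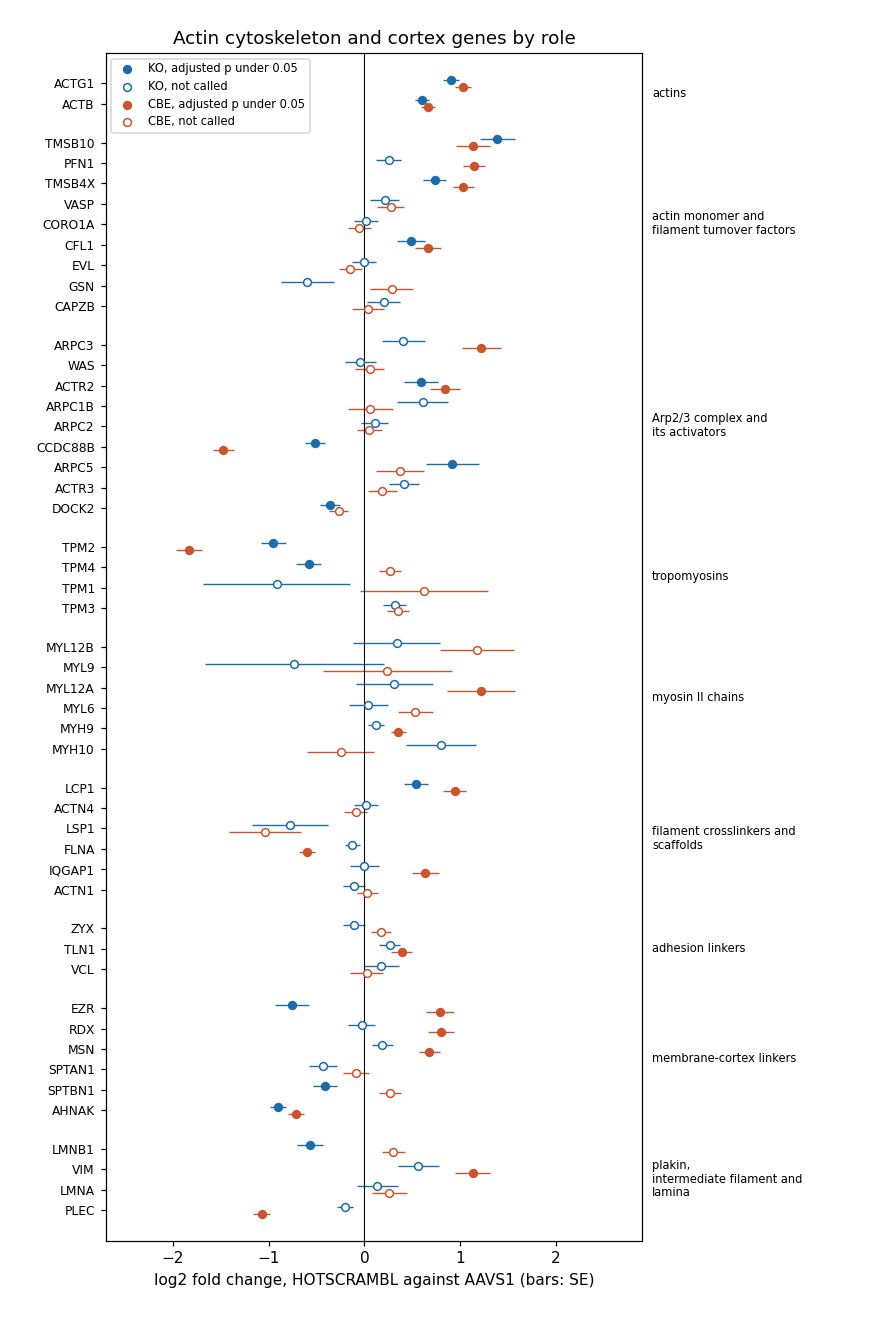
Log2 fold change of all 49 members, HOTSCRAMBL against AAVS1, with KO (blue) and CBE (orange), grouped by role and ordered by exonic length within a role; bars are SE and filled points passed an adjusted p of 0.05. Both actins and both thymosins lie to the right with both editors, whereas TPM2, CCDC88B and AHNAK lie to the left.

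Membrane linkers gave 3 falls with KO, and 3 rises and 1 fall with CBE, among 6 genes. At or above 64.4 CPM, 20.4% of tested genes fell with KO, and 18.6% rose and 17.9% fell with CBE. AHNAK (ENSG00000124942, chromosome 11, 62433542 to 62556235), a giant submembrane scaffold, stood at 2011 and 1581 CPM in AAVS1 KO libraries and 1010 and 902 in those of HOTSCRAMBL KO. It stood at 1940 and 1596 CPM in AAVS1 CBE libraries and 1077 and 1065 in those of HOTSCRAMBL CBE. No HOTSCRAMBL library reached the lowest control, and the log2 fold change was −0.90 (edgeR adjusted p 2.40e-08, SE 0.09) with KO and −0.72 (edgeR adjusted p 1.26e-06, SE 0.09) with CBE. Both calls held under all 19 alternatives.

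EZR, RDX and MSN encode ezrin, radixin and moesin, related proteins that bind membrane proteins at one end and actin at the other. EZR (ENSG00000092820, chromosome 6, 158765741 to 158819368) stood at 109 and 89.7 CPM in AAVS1 KO libraries, 54.2 and 62.8 in those of HOTSCRAMBL KO, 97.96 and 89.0 for AAVS1 CBE, and 171 and 151 for HOTSCRAMBL CBE. KO libraries were the lowest and CBE libraries the highest of the 8. It fell with KO (−0.75 with SE 0.18, edgeR adjusted p 0.00604) and rose with CBE (0.79 with SE 0.15, edgeR adjusted p 5.69e-04). Its KO call was lost without AAVS1 KO replicate 1 (−0.65, p 0.185) or HOTSCRAMBL KO replicate 1, and its CBE call without HOTSCRAMBL CBE replicate 1 (0.75, p 0.0725). RDX (ENSG00000137710, chromosome 11, 109864295 to 110296712) stood at 128 and 145 CPM in AAVS1 KO libraries, 118 and 150 in those of HOTSCRAMBL KO, 108 and 119 for AAVS1 CBE, and 171 and 228.5 for HOTSCRAMBL CBE. MSN (ENSG00000147065, chromosome X, 65588377 to 65741931), the most abundant of the trio per kb, stood at 466 and 390 CPM in AAVS1 KO libraries, 437 and 540 in those of HOTSCRAMBL KO, 385 and 429 for AAVS1 CBE, and 649 and 650 for HOTSCRAMBL CBE. KO libraries overlapped their controls for both, with −0.03 (edgeR adjusted p 0.94, SE 0.14) for RDX and 0.19 (edgeR adjusted p 0.379, SE 0.11) for MSN. With CBE they rose by 0.80 (edgeR adjusted p 1.45e-04, SE 0.13) and 0.68 (edgeR adjusted p 1.03e-04, SE 0.11).

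Of the 2 spectrins, which form the membrane skeleton, 1 was called. SPTBN1 (ENSG00000115306, chromosome 2, 54456327 to 54671446) stood at 264 and 219 CPM in AAVS1 KO libraries, 186 and 176 in those of HOTSCRAMBL KO, 268 and 244 for AAVS1 CBE, and 302 and 314 for HOTSCRAMBL CBE. It fell with KO (−0.41 with SE 0.12, edgeR adjusted p 0.0343), and its CBE value was 0.27 (edgeR adjusted p 0.172, SE 0.11). The KO call was lost in 6 of 8 left-out fits, most without AAVS1 KO replicate 1 (−0.30, p 0.46). SPTAN1 had −0.43 with KO (edgeR adjusted p 0.0649) and −0.09 with CBE, neither called.

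PLEC (ENSG00000178209, chromosome 8, 143915153 to 143976734) encodes plectin, which ties intermediate filaments to actin and to the membrane. It stood at 2364 and 1821 CPM in AAVS1 KO libraries, 2037 and 1588 in those of HOTSCRAMBL KO, 2171 and 1754 for AAVS1 CBE, and 935 and 919 for HOTSCRAMBL CBE. KO libraries overlapped their controls, whereas both CBE libraries were far below theirs. The log2 fold change was −0.21 (edgeR adjusted p 0.152, SE 0.08) with KO and −1.07 (edgeR adjusted p 1.60e-09, SE 0.09) with CBE. With the GC trend removed the CBE value was −0.55 (edgeR adjusted p 0.00122). VIM (ENSG00000026025, chromosome 10, 17228241 to 17237593), the intermediate filament protein vimentin, stood at 36.2 and 41.0 CPM in AAVS1 KO libraries, 51.3 and 62.6 in those of HOTSCRAMBL KO, 40.1 and 44.8 for AAVS1 CBE, and 89.4 and 96.3 for HOTSCRAMBL CBE. HOTSCRAMBL libraries were higher in both, and the values were 0.56 (edgeR adjusted p 0.12, SE 0.22) with KO and 1.13 (edgeR adjusted p 8.39e-05, SE 0.18) with CBE. LMNB1 (ENSG00000113368, chromosome 5, 126776623 to 126837020), the nuclear lamina protein lamin B1, stood at 204 and 163 CPM in AAVS1 KO libraries, 128 and 119 in those of HOTSCRAMBL KO, 201 and 195 for AAVS1 CBE, and 247 and 242 for HOTSCRAMBL CBE. It fell with KO (−0.57 with SE 0.14, edgeR adjusted p 0.00679) and had 0.30 (edgeR adjusted p 0.136, SE 0.12) with CBE. The KO call was lost in 3 of 8 left-out fits, most without AAVS1 KO replicate 1 (−0.43, p 0.265). LMNA had 0.14 and 0.26, neither called.

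The effect of targeting HOTSCRAMBL differed between editors, by the edgeR test of the difference itself, in 10 of the 49 members, beside 3.19% of all tested genes and 13.9% of those at or above 64.4 CPM. In 4 the KO effect was the higher one (background 1.74%, or 6.64% at or above 64.4 CPM), and all of these fell with CBE: PLEC, CCDC88B, TPM2 and FLNA. In 6 it was the lower one (background 1.45%, or 7.3% at that level): EZR, PFN1, LMNB1, TPM4, RDX and SPTBN1. For PLEC the difference of log2 fold changes, KO minus CBE, was 0.87 (edgeR adjusted p 4.81e-05, SE 0.12), and for EZR it was −1.54 (edgeR adjusted p 1.34e-04, SE 0.23). CCDC88B followed with 0.95 (edgeR adjusted p 2.58e-04, SE 0.15). These 3 held under each of the 18 alternatives that could be fitted. Left-out libraries ended the other 7 calls in 3 to 8 of 8 fits. The largest adjusted p came without AAVS1 KO replicate 1 for LMNB1 (0.146), RDX (0.176) and SPTBN1 (0.272), without AAVS1 KO replicate 2 for PFN1 (0.127) and TPM4 (0.0755), without AAVS1 CBE replicate 1 for FLNA (0.227) and without HOTSCRAMBL CBE replicate 1 for TPM2 (0.213).

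**Figure D3:**
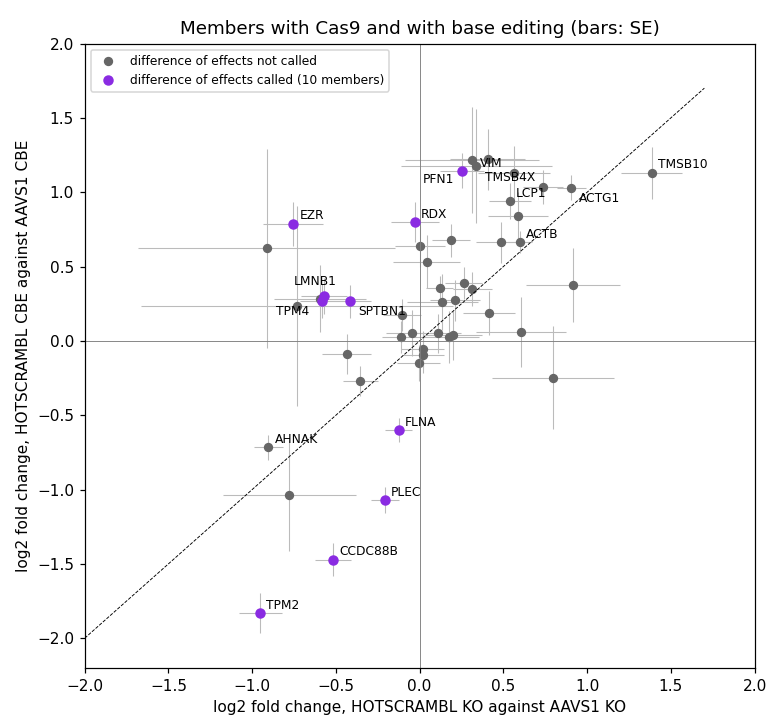
Log2 fold change of each member with CBE (vertical axis) against KO (horizontal axis), with SE bars; the dashed line marks equal effects and purple points are the 10 members whose effects differed. PLEC, FLNA, CCDC88B and TPM2 lie below the line, and EZR, PFN1, RDX, LMNB1, TPM4 and SPTBN1 above it.

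Exonic length, the merged exon bases that the counting tool lists per gene, ran from 461 bases (TMSB10) to 32700 (MYH10) with a median of 6515, beside 3214 over all tested genes. With KO the 5 members under 3 kb had a median log2 fold change of 0.34, the 17 of 3 to 6 kb 0.31, the 15 of 6 to 12 kb 0.02 and the 12 of 12 kb or more −0.28. With CBE the same bands had medians of 1.13, 0.66, 0.19 and 0.03. No member under 3 kb fell in either comparison, beside 3.72% with KO and 4.58% with CBE of the protein-coding genes of that length with a level above the median. With 5 members, 0 falls cannot be told apart from such shares. TPM2 (3183 bases), just above that bound, fell with both editors, and EZR (3286 bases) fell with KO and rose with CBE. Of the 12 members of 12 kb or more, 0 rose and 4 fell with KO (AHNAK, DOCK2, SPTBN1 and TPM4), beside 6.86% higher and 13.6% lower among such protein-coding genes. With the length trend removed, DOCK2 (edgeR adjusted p 0.0749) and SPTBN1 (edgeR adjusted p 0.0596) were no longer called with KO. With CBE 1 of the 12 rose (MYH9) and 2 fell (AHNAK and PLEC), beside 6.49% higher and 10.3% lower among such protein-coding genes. Spearman's rho between length and log2 fold change over the 49 members was −0.25 with KO and −0.49 with CBE, as a description only, since genes of one set of libraries are not replicates. Over all tested genes it was −0.01 in both, and over the 10213 tested protein-coding genes with a level above the median −0.12 in both. Between line labels, MOLM13 minus OCI-AML4, it was 0.40 over the members and 0.17 over those protein-coding genes, so a relation to length of this size was also seen between libraries of the same edits. In those protein-coding genes the medians of the bands ran from 0.14 under 3 kb to −0.09 at 12 kb or more with KO, and from 0.20 to 0.01 with CBE. The summed level of the members under 3 kb was 381 to 519 CPM in the 4 control libraries and 616 to 982 CPM in the 4 HOTSCRAMBL libraries. For members of 12 kb or more it was 6088 to 7491 CPM in controls and 5172 to 5930 CPM in HOTSCRAMBL libraries. Neither sum overlapped between the edited targets, and no background over all genes was taken for these sums. TMSB4X, PFN1 and TMSB10 made up most of the first, and AHNAK and PLEC carried the second. AHNAK and PLEC together summed to 3350 to 4376 CPM in controls and 1984 to 3047 CPM in HOTSCRAMBL libraries. The other 10 long members summed to 3116 and 2687 CPM in AAVS1 KO libraries, 2883 and 2681 in those of HOTSCRAMBL KO, 2995 and 2760 for AAVS1 CBE, and 3328 and 3203 for HOTSCRAMBL CBE, so they overlapped with KO and were higher with CBE.

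Length was not the only property that moved with the change. GC content of the longest transcript ran from 35.7% (ACTR3) to 67.6% (CCDC88B), and its rho with the log2 fold change was −0.24 with KO and −0.41 with CBE over the members. Over the protein-coding genes above it was −0.19 and −0.29. None of the 10 members with 60% GC or more rose in either comparison, and 3 of them (PLEC, FLNA and CCDC88B) fell with CBE. Among protein-coding genes of that GC content above the median level, 5.74% were higher and 22.2% lower with CBE, and 7.03% higher and 17.6% lower with KO, so the members lay near these shares. None of the 9 members under 45% GC fell, and 5 of them rose with CBE, beside 2.29% lower and 10.1% higher with CBE and 4.12% lower with KO among such protein-coding genes. Length and GC were themselves related with a rho of −0.18 over the members. TPM2, with the deepest fall, has 3183 bases, beside a median of 3214 over all tested genes, and a GC content of 55.3%. AHNAK has 19466 bases and a GC content of 49.3%. With the GC trend removed from every library, the KO calls of CCDC88B (edgeR adjusted p 0.64), ACTR2 (0.132), ARPC5 (0.0809), DOCK2 (0.123) and SPTBN1 (0.116) were lost. The same removal ended the CBE calls of FLNA (edgeR adjusted p 0.159), IQGAP1 (0.0704) and MYL12A (0.0752). In that fit the relation to length over members was −0.30 with KO and −0.62 with CBE. With the length trend removed it was −0.24 with KO, and the counts of called members stayed within 1.5 times those given above. Whether fragmentation, amplification or capture differed between libraries was not tested.

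**Figure D4:**
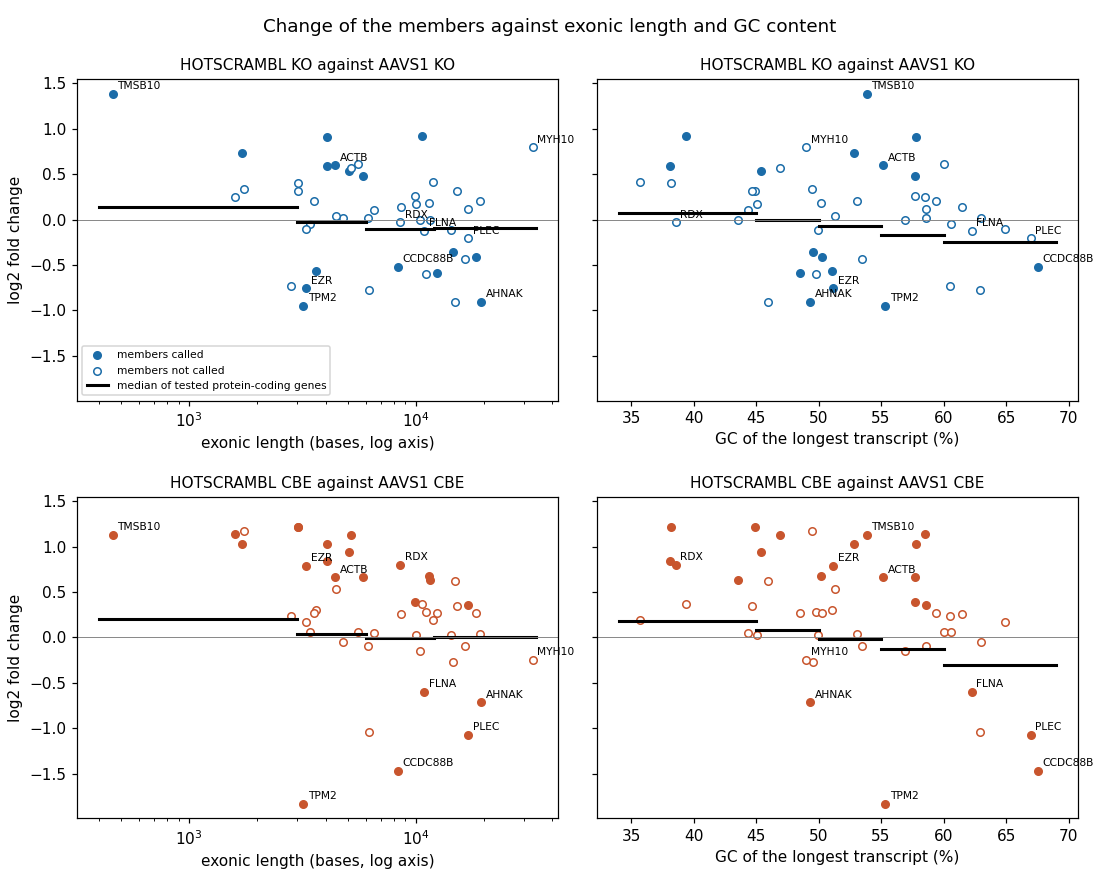
Log2 fold change of the 49 members with KO (top) and CBE (bottom) against exonic length in bases on a log axis (left) and GC content in percent (right); filled points were called, and black lines are medians of the tested protein-coding genes above the median level in each band. Short members lie mostly above 0, and with CBE the members above 60% GC include PLEC, FLNA and CCDC88B well below 0.

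The controls of the 2 editors were compared in the same model. No member differed between AAVS1 KO and AAVS1 CBE (0 of 49 called by edgeR, 0 at an unadjusted p under 0.05, background 0.0%), and DESeq2 called 35 genes in the whole table. Log2 differences of the members between the controls lay between −0.42 and 0.80. Between line labels, MOLM13 minus OCI-AML4, 2 members were called, beside 0.495% of all tested genes. PFN1 was at −0.40 (edgeR adjusted p 0.0296, background of lower calls 0.258%) and PLEC at 0.27 (edgeR adjusted p 0.0359, background of higher calls 0.237%). PFN1 was lower in the MOLM13-labelled library of each of the 4 groups and PLEC higher. Both calls were lost in 6 of 8 left-out fits, with edgeR adjusted p up to 0.50 for PFN1 (−0.36) and 0.60 for PLEC (0.23), each without AAVS1 KO replicate 2.

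Around the members, 137 further genes of the same pathways were listed, of which 127 were tested. Among them 13 were higher and 17 lower with KO (23.6% called), and 13 were higher and 19 lower with CBE (25.2% called). The background was 8.76% with KO and 8.83% with CBE over all tested genes, and 34.6% and 36.5% at or above 64.4 CPM. Neither background was matched to the levels of these 127 genes. RHOB, a small GTPase of membrane traffic, stood at 26.3 and 22.3 CPM in AAVS1 KO libraries, 129 and 93.2 in those of HOTSCRAMBL KO, 32.0 and 25.01 for AAVS1 CBE, and 10.4 and 15.4 for HOTSCRAMBL CBE. It rose by 2.18 (edgeR adjusted p 1.67e-07, SE 0.23) with KO, and its effect differed between editors by 3.39. The Rac effector kinase PAK2 rose with both (0.80 and 0.97), and RAC2, the Rac of blood cells, and WASF2, a WAVE subunit, rose with CBE (0.82 and 0.79). PARVG, an adhesion linker of leukocytes, fell with both (−1.08 and −0.64). ARHGAP45 (−0.81) and the unconventional myosin MYO18A (−0.95) fell with KO, and MYO9B (−0.86) and ARHGEF1 (−0.54) fell with CBE. ACTN2, the muscle relative of ACTN1 and ACTN4, was at 0 to 2.61 CPM in the 4 controls, 1.80 and 0.945 in HOTSCRAMBL CBE, and 35.8 and 41.8 in HOTSCRAMBL KO. Its fitted log2 fold change with KO was 5.50 (edgeR adjusted p 2.28e-07, SE 0.61), a value that depends on the near-zero controls. The formin DIAPH1 and the scaffold IQGAP3 had KO effects below their CBE effects (differences of −0.76 and −1.28).

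Promoters are shown because serum response factor, a regulator of many actin genes, binds the CArG box, CC followed by 6 bases of A or T and GG. RefSeq promoters (GRCh38.p14, 250 bases before to 50 after a start) were found for 43 of the 49 members, 70 promoters in all. None was found for ACTB, ARPC1B, CCDC88B, LSP1, MYL9 and PLEC, so these members were not searched for any motif. The box lay in 4 of these 70 (5.71%), beside 1.29% of 35116 promoters of the same length. The 60 bases around each are given with the box in capitals, from chr17:81512859-81512918 (minus strand), chrX:154374694-154374753 (minus strand), chr14:68977703-68977762 (minus strand) and chr19:16067340-16067399 (plus strand).
ACTG1: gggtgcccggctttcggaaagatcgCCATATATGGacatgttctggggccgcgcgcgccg
FLNA: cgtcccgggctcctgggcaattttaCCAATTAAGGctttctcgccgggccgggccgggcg
ACTN1: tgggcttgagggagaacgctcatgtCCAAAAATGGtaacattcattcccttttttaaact
TPM4: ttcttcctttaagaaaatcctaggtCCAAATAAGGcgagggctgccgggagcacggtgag
The boxes start 94, 94, 171 and 173 bases before the annotated start. ACTN1 and TPM4 also have promoters at other starts, in which no box was found. Of these genes ACTG1 rose with both editors, FLNA fell with CBE, TPM4 fell with KO and ACTN1 was not called, so the 4 did not share a direction. The motif GGGCGG, searched on both strands, lay in 57 of the 70 member promoters (81.4%) and in 45% of all, and TATAAA in 5 of 70 (7.14%) and 11.5% of all. A match describes these letters in these windows and is not a bound site.

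How reads were assigned bears on several members. By genomic span another annotated gene overlaps 39 of the 49, on the opposite strand in 35, and counting used no strand. Overlap of their exons was not checked. Reads where annotated exons of both genes overlap were not counted, which can lower the counts of members with partners such as EZR-AS1 and VIM-AS1, and any antisense read elsewhere over exons of a member was counted with it. Named pseudogene copies exist for 22 members, and reads that fit several places were not counted. This can lower the counts of such members, by an amount that was not measured. Of the counts given to a member and its named copies together, the copies held 8.76% for TPM3, 3.12% for ARPC1B and 2.99% for ARPC3. They held 2.63% for ACTG1 and 0.31% for ACTB.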

How the data were processed

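The authors deposited raw counts for each gene in 8 ChIRP libraries, as whole numbers without normalisation. Per the file headers, featureCounts 2.0.6 counted alignments to GRCh38 with Ensembl 112 annotation, without strand, leaving out reads at several positions or over several genes. Per the file headers both reads of a pair were counted separately, so a fragment can weigh 2 counts. Between 71.8% and 74.9% of values from 1 to 20 were even. The gene length column, which the authors deposited in a unit of bases, is the merged exon length. The aligner version and duplicate removal are not given in the sources used here. The records of 2 genes were rejoined from broken lines.

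Groups and line labels came from the sample titles. edgeR 4.0.16 in R 4.3.3 fitted all 8 libraries with terms for 4 groups and the line label (3 residual degrees of freedom), TMM scaling, filterByExpr at a minimum count of 10, and Benjamini-Hochberg adjustment over 24057 genes at 0.05. The replicate number marks the labelled line in every group, so the line was kept as a block. Deviations from group means correlated at r 0.0085 to 0.0245 between groups over all tested genes and 0.0411 to 0.117 over those above the median level. Whether the 2 libraries of a group were separate cultures beyond their line label is not stated, and p-values measure only their spread. Library shares had 95% Wilson intervals at most 0.027 percentage points wide, for counting error only.

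Alternatives were other scaling, filters, DESeq2 1.42.0, limma-voom (limma 3.58.1), no block, 4 libraries only, length trend removed and each library left out. Removal of GC trends was added after seeing the data. The members, role groups, pathway lists and tests were chosen with earlier results of these data known. Full values are given for ACTB, ACTG1, VIM and up to 8 called members with the smallest p in each direction of each comparison; of the pathway lists, up to 3 called genes with the smallest p in each direction were eligible.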

Additional observations from a re-analysis of the deposited data

Results flagged for a closer look

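The effect of targeting HOTSCRAMBL differed between Cas9 and base editing in 10 members by the edgeR test of the difference (KO minus CBE, log2 scale). PLEC (0.865), CCDC88B (0.953), TPM2 (0.882) and FLNA (0.475) had KO effects above their CBE effects. EZR (−1.54), PFN1 (−0.89), LMNB1 (−0.871), TPM4 (−0.851), RDX (−0.829) and SPTBN1 (−0.68) had KO effects below them. Of the 10, EZR passed the threshold in opposite directions with the 2 editors, and TPM4, LMNB1 and SPTBN1 fell with KO while their CBE values were above 0 without a call. PLEC, FLNA and CCDC88B are among the 10 members with 60% GC or more. Each group holds 2 libraries, so no library was screened as standing apart within its group.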

How the results depend on the processing

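No called member changed sign under any alternative, and 6 of 16 KO calls, 14 of 22 CBE calls, 3 of 10 calls of the difference and 0 of 2 line calls held under every alternative that could be fitted. The count of called members with KO was 6 when only the 4 libraries of the comparison were fitted and 6 to 13 with 1 library left out, the lowest without AAVS1 KO replicate 1. Calls over all tested genes fell too, from 8.76% to 2.75% with 4 libraries and 2.91% without AAVS1 KO replicate 1. With CBE, calls over all tested genes also fell, from 8.83% to 2.19% with 4 libraries, and they fell in each fit with 1 library left out. Without the replicate block, the difference between editors was called in 6 members, and with 1 library left out in 4 to 7 (all tested genes 3.19%, 2.09% without the block, 0.973% to 1.54% with 1 library left out). The pairing rests on the shared line label; without the block the KO calls of ACTR2, CFL1, DOCK2 and SPTBN1, the CBE calls of MYH9, MYL12A and TLN1 and the difference calls of FLNA, PFN1, RDX and SPTBN1 were lost. Members called between line labels numbered 1 without TMM, 6 by DESeq2, 9 by limma-voom, 0 with the length trend removed, 1 with the GC trend removed, 1 with both removed, and 0 to 2 with 1 library left out. Over all tested genes these line calls made up 0.495% by edgeR, 2.97% by DESeq2 and 1.1% by limma-voom. VIM with KO was called by DESeq2 alone (adjusted p 5.24e-04, beside 0.12 by edgeR). The members' median log2 fold change with KO was −0.0532 without TMM, 0.239 with the GC trend removed, 0.207 with both trends removed, and 0.0135 to 0.135 with 1 library left out. With CBE it was 0.261 with RLE scaling, 0.134 without TMM, 0.28 without a filter, 0.274 with the stricter filter, 0.264 by DESeq2, 0.27 by limma-voom, 0.282 without the replicate block, 0.275 with 4 libraries, 0.299, 0.361 and 0.352 with length, GC or both trends removed, and 0.263 to 0.321 with 1 library left out. The 2 line-labelled pairs gave nearly the same CBE median, so small shifts count as moved there. For the difference it was −0.206 to −0.122, and for the line labels −0.019 to 0.0652, with 1 library left out. Between the controls it was 0.0415 with RLE, 0.0335 without TMM, 0.0391 without a filter, 0.0385 with the stricter filter, 0.0422 by DESeq2, 0.0355 by limma-voom, 0.039 without the replicate block, 0.0385 with 4 libraries, 0.053, 0.0443 and 0.0321 with length, GC or both trends removed, and −0.0139 to 0.0444 with 1 library left out. The rank correlation with exonic length for KO was −0.238, −0.295 and −0.283 with length, GC or both trends removed, and −0.295 to −0.233 with 1 library left out. For CBE it was −0.466 by limma-voom, −0.622 with the GC trend removed, −0.606 with both removed, and −0.492 to −0.45 with 1 library left out. For the difference it was 0.103 to 0.258. Except where the construction shows it (fewer libraries), the cause was not tested. Fitting only 4 libraries gives no difference or line value, and the fit without the block gives no line value. With 2 libraries a group, a fit without one of them assumes that the lone library varies like the other groups.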

Other observations

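Of the pseudogenes named after members, 28 had enough counts to be tested and 1 was called, with KO. Over all tested genes 8.76% were called with KO and 8.83% with CBE. TPM3P1, a copy of TPM3, had a log2 fold change of 3.87 with KO (edgeR adjusted p 0.021), while TPM3 itself had 0.32. TPM3P1 stood at 0.51 and 0.2 CPM in AAVS1 KO libraries and 8.77 and 1.88 in those of HOTSCRAMBL KO. These levels are near 0, and the rise rests mostly on HOTSCRAMBL KO replicate 1.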
